A study of Mus musculus with 6 samples.

Results

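The genes described here are Avil, which encodes advillin, and its relatives of the gelsolin and villin family, Vil1, Gsn, Capg, Scin, Flii and Svil. They were compared between parental CT26.mMR1 cells and the mutant M8. The family was chosen from this comparison, because Avil was among the genes that fell furthest in M8, and the 6 relatives were added by family membership whatever their values. These 7 genes were read out of 24346 gene symbols in the deposited tables. The differences of the 7 genes between the lines are therefore given as a description, and no p-value is attached to them.

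Parental cells are CT26, a mouse colorectal tumor line, carrying mouse MR1 by retroviral transduction. M8 is a mutant derived from these cells with the mutagen ENU. It was picked because it raised the response of an MR1-restricted reporter T cell line and also, unlike other such mutants, carried more MR1 than the parental cells. Both groups thus carry the MR1 construct. The titles of all 6 samples also carry the name CT26_cl9, whose meaning is not given in the sources used here. M8 is 1 line, so its other mutations and the chance differences of a picked line cannot be told apart from what it was picked for. Each line gave 3 RNA samples, and poly(A) RNA was sequenced from all 6.

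Proteins of this family are built from repeated gelsolin-like domains that bind actin, most of them under the control of calcium and phosphoinositides. Gelsolin and adseverin cut actin filaments and cap the fast-growing end, CapG caps that end without cutting, and villin and advillin carry in addition a headpiece domain with which filaments can be bundled. Villin is a core protein of intestinal microvilli, and advillin is known from sensory neurons and from tuft cells, the chemosensory cells of the gut and airway lining.

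The upstream sequences of the villin-type genes are shown because advillin, villin and the villin-like gene Vill share a domain plan but had very different levels in these cells. In the GENCODE M21 models the coding parts of Avil, Vil1 and Vill were 819, 827 and 859 codons long, each spread over a transcript of 20 exons. Those of the other genes were 349 codons in Capg, 715 in Scin, 780 in Gsn, 1271 in Flii and 2257 in Svil. Each sequence below is the 250 bases before a RefSeq transcript start on GRCm38 (mm10), 5′ to 3′, on the plus strand. The Avil window is chr10:127000459-127000708, that of Vill chr9:119052528-119052777 and that of Vil1 chr1:74409134-74409383. In RefSeq the Avil gene begins at 127000065, so the Avil window lies inside the annotated gene. Vill begins at 119052729, so its window runs into the annotated gene. Avil has 8 RefSeq transcripts and Vill 11, and only the window shown was searched for each, so other starts are not covered. Capitals mark matches to any of 5 motifs.
Avil: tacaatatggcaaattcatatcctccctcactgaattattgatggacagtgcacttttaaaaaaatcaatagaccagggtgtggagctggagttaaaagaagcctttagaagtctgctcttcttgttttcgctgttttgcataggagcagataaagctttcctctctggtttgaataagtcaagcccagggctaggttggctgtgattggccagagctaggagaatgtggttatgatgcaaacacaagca
Vill: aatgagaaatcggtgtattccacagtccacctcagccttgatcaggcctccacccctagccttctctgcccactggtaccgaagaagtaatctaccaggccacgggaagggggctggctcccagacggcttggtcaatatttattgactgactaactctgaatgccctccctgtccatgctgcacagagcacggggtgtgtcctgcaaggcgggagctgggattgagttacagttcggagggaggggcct
Vil1: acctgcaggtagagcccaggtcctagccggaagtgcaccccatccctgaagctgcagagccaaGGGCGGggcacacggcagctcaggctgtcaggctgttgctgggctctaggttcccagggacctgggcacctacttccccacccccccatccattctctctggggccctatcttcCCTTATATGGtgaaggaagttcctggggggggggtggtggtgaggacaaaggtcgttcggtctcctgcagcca

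The motifs, searched on both strands, were the TATA box TATAAA, the GC box GGGCGG and the E-box CANNTG, together with the octamer ATGCAAAT and the CArG box. The Avil window held none of them and neither did that of Vill. Of 32851 such windows, 15.6% held none. Avil's window was poor in G and C, at 42.0% against a median of 52.4%, and held 1 CpG against a median of 6. Windows with no more than 1 CpG made up 18.8% of the total. The Vil1 window had 62.8% G and C, a GC box at -187 to -182 and a CArG box, CCTTATATGG, from -73 to -64 counted back from the start. Such a CArG box was in 1.47% of windows and a GC box in 32.7%, while the E-box was in 66.2%, the TATA box in 12.4% and the octamer in 1.6%. Windows of Gsn, Capg, Scin and Flii were searched too, and no window of these genes or of the villin-type genes held a TATA box or an octamer. A match to these letters is a description of the sequence and not a measured binding site.

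Expression is given as FPKM, the fragments assigned to a gene divided by transcript length and by the mapped fragments of the library, which allows levels of different genes to be compared per length. In the libraries, 13747 to 14357 symbols had a value above 0, and the FPKM values summed to 593635 to 630264. Steps in the values of weakly expressed genes gave relative depths of 0.955 to 1.08 in parental and 0.777 to 0.869 in M8 samples, so the M8 libraries were all less deep. Differences were fitted with limma on log2(FPKM + 1) in the 10597 genes with a mean of at least 1 FPKM, and a gene was called at a Benjamini-Hochberg adjusted p below 0.1. A log2 fold change, M8 minus parental, is on this log2(FPKM + 1) scale and understates the change of low genes. The study describes the samples of a line as biological replicates. How they were kept apart, as by separate cultures, is not given in the sources used here, and p-values measure the spread between these samples.

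Among the family, 5 of 7 genes passed the filter on low values. Avil, Gsn and Svil were called lower in M8 and Capg and Flii were not called. Over all genes tested 16.5% were called lower, 21.2% higher and 37.7% in either direction, and since the family was picked on this contrast nothing is read from its count. The 3 values of each line did not overlap in 4 of the 5 genes, against 45.2% of all genes tested. Across the 5 the median difference was -0.19 on the log2 scale, beside 0.0069 for everything tested. With TPM 1658 genes were called higher and 2209 lower, and with upper-quartile scaling 1470 and 2769, where the deposited scale gave 2250 and 1745. The same 3 family members were called lower, and none higher, with each of these scalings.

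Avil was expressed at 22.0, 14.2 and 15.2 FPKM in parental replicates 1, 2 and 3, and at 8.13, 6.29 and 6.49 FPKM in those of M8. The highest M8 value lay well under the lowest parental one, and the parental values were the more scattered because replicate 1 stood above the other two. The means were 17.1 ± 4.23 FPKM (SD, n = 3) and 6.97 ± 1.01 FPKM (SD, n = 3), a ratio of 0.407. This put Avil at -1.17 on the log2 scale, with a standard error of 0.145. Without parental replicate 1 it was -0.99, and without parental replicate 2 it was -1.28. In bulk RNA, fewer cells that express Avil and less Avil RNA per cell cannot be told apart. Avil lies on chromosome 10 from 127000065 to 127020994 in GRCm38, and no other RefSeq gene overlaps it.

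**Figure D1:**
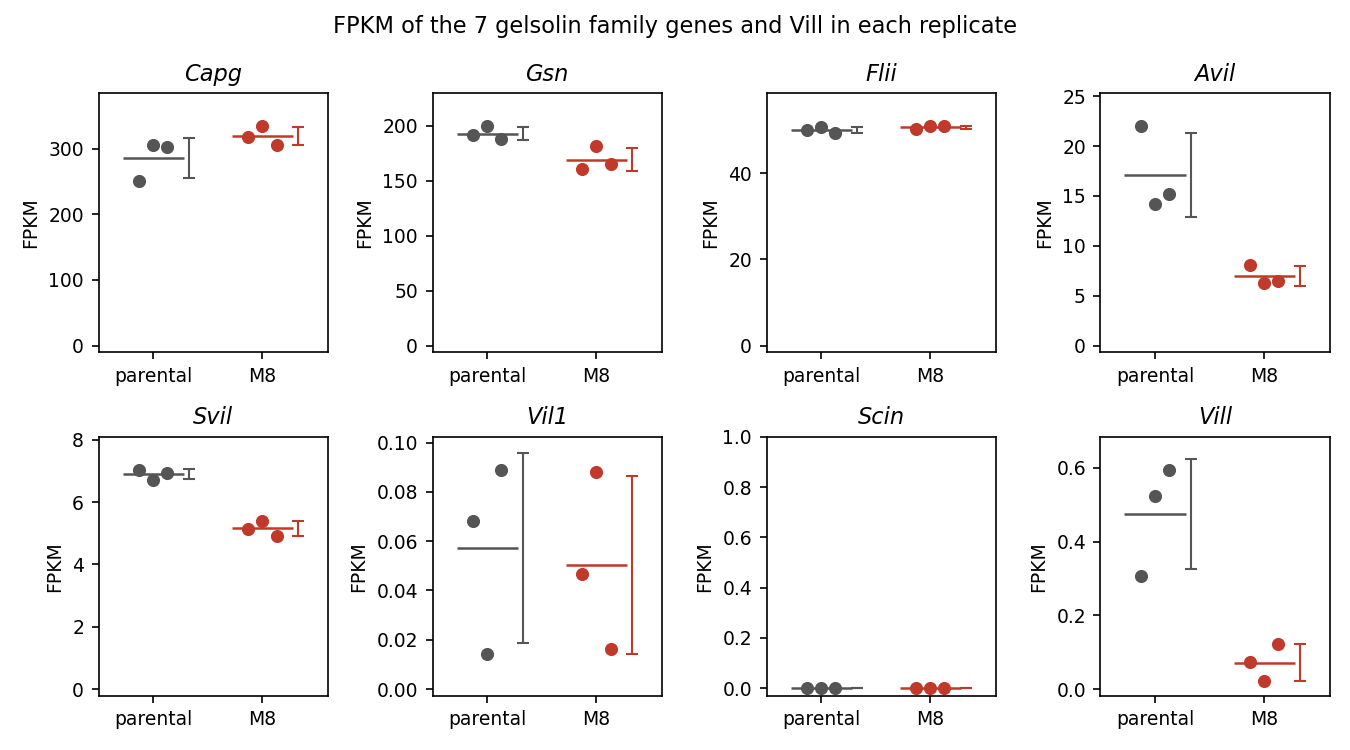
FPKM of the 7 family genes and of Vill in parental and M8 samples, with 1 panel per gene and axes that include 0. Points are the 3 replicates, lines the means and bars the SD. The M8 points of Avil (6.29 to 8.13) lie below all its parental points (14.2 to 22.0), while those of Flii overlap between the lines.

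Vil1, the gene of villin itself, was close to absent in both lines. Its values were 0.068, 0.014 and 0.089 FPKM in parental cells and 0.047, 0.088 and 0.016 FPKM in M8, and the lines overlapped. The values were scaled by relative depth and divided by the smallest of them, which was taken as 1 read. They came to 5, 1 and 7 reads against 3, 5 and 1, each within 0.0283 of a whole number. The read counts rest on that assumed step. The sums were 13 reads in parental cells (exact Poisson 95% interval 6.92 to 22.2) and 9 in M8 (4.12 to 17.1), intervals that cover counting error only, so a difference was not detectable at this depth. Vil1 was left out of the fit by the filter. It spans 74409384 to 74435560 on chromosome 1 and overlaps Usp37, which was not called.

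Vill, the third villin-type gene, is no member of the chosen family list and was also expressed at under 1 FPKM. Its FPKM values were 0.307, 0.525 and 0.594 in parental cells and 0.0738, 0.0209 and 0.121 in M8. All parental values were above all M8 values, with means of 0.475 ± 0.150 FPKM (SD, n = 3) and 0.0720 ± 0.0502 FPKM (SD, n = 3) and a ratio of 0.151. Fitted without a filter on low values, Vill was called lower, by -0.46 on the log2 scale with a standard error of 0.079 (limma adjusted p = 0.0163), as were 10.1% of 16092 genes in that fit. The M8 values of Vill were close to those of Vil1, which rested on 1 to 7 reads a sample, and the part of the lower M8 depth in them was not tested. Plcd1, a phospholipase C gene, lies 2 bases past the end of Vill and was looked at after its values were seen. It fell from 12.6 to 9.70 FPKM (log2 fold change -0.35, limma adjusted p = 0.00213).

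Gsn, the gene of gelsolin, was among the most strongly expressed of all genes, at the 98.1 percentile of level. Its FPKM values were 191, 200 and 188 in parental cells and 161, 182 and 166 in M8. The highest M8 value fell short of the lowest parental one by a small margin. Mean levels of Gsn were 193 ± 6.01 and 169 ± 10.7 FPKM (SD, n = 3 each), and the log2 fold change was -0.19 with a standard error of 0.051. It ranged from -0.29 to -0.15 over the alternatives tried. It lies on chromosome 2 from 35256359 to 35307902 and overlaps a long noncoding gene, Gm39795. How reads of overlapping genes were assigned is not given in the sources used here, so such values are less certain.

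Capg, the capping protein gene, was the highest of the family and stood at the 98.9 percentile of all genes. It had 251, 305 and 303 FPKM in parental cells against 318, 334 and 306 FPKM in M8. The lines did not overlap, but the lowest M8 value barely passed the highest parental one, and parental replicate 1 was far below the other two. The means were 286 ± 30.4 and 319 ± 14.1 FPKM (SD, n = 3 each). The difference of 0.16 on the log2 scale, with a standard error of 0.072, was not called. Leaving out parental replicate 2 or 3 raised it to 0.21 or 0.20 and Capg was then called higher, whereas without parental replicate 1 it was 0.071. Capg lies on chromosome 6 from 72538282 to 72562983.

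Scin, which encodes adseverin, was listed at 0 in each of the 6 samples. It lies on the minus strand of chromosome 12 from 40059769 to 40134228.

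Flii encodes flightless I, in which gelsolin-like domains are joined to leucine-rich repeats. Its FPKM values were 50.0, 50.7 and 49.3 in parental cells and 50.2, 50.9 and 50.8 in M8. These values overlapped, and relative to its level no other tested member varied so little. The means were 50.0 ± 0.749 and 50.6 ± 0.363 FPKM (SD, n = 3 each). On the log2 scale M8 was higher by 0.018, with a standard error of 0.038, a value that turned below 0 with TPM, quantile and upper-quartile scaling. Flii lies on the minus strand of chromosome 11 from 60714143 to 60727263 and overlaps Llgl1, a polarity gene, which was itself called lower (log2 fold change -0.18, limma adjusted p = 0.0294).

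Svil encodes supervillin, a large protein that ties actin and myosin to the membrane. Its FPKM values were 7.03, 6.71 and 6.92 in parental cells and 5.14, 5.41 and 4.91 in M8. The replicates of each line lay close together and the lines were clearly apart. With means of 6.89 ± 0.161 and 5.15 ± 0.248 FPKM (SD, n = 3 each), Svil was at -0.36 on the log2 scale with a standard error of 0.062. Over the 17 alternatives it ranged from -0.41 to -0.31. Svil lies on chromosome 18 from 4920467 to 5119293, and 2 noncoding or predicted genes overlap it.

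**Figure D2:**
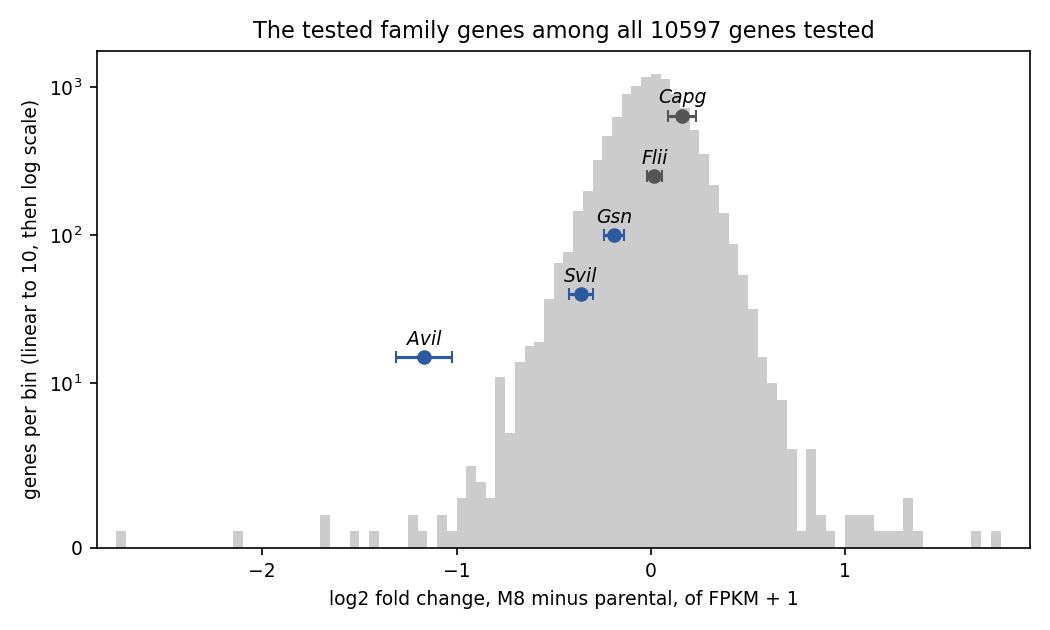
Log2 fold changes (M8 minus parental) of the 5 tested family genes with their standard errors, over a grey histogram of all 10597 genes tested (number of genes per bin, on an axis that is linear to 10 and logarithmic above). Blue points were called lower and dark grey points were not called, and the height at which a point is drawn has no meaning. Avil, at -1.17, lies far to the left and Svil (-0.36) lies on the left flank, with 6.99% of genes at least as far from 0. Gsn (-0.19), Flii (0.018) and Capg (0.16) lie nearer the centre.

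By level per length, the order in both lines was Capg, Gsn, Flii, Avil, Svil, Vil1 and Scin. No gene overlapped its neighbour in the order in either line. The narrowest step in parental cells was from Capg to Gsn, a ratio of 1.48, and this ratio was 1.89 in M8. Avil stood 2.49-fold above Svil in parental cells and 1.35-fold above it in M8, and it stood 2.92-fold below Flii in parental cells and 7.27-fold below it in M8. The summed FPKM of the 7 genes was 553 ± 28.3 in parental cells and 552 ± 23.4 in M8 (SD, n = 3 each). Within that sum the share of Capg was 51.6% in parental cells and 57.9% in M8, and that of Gsn was 34.9% and 30.7%. Avil made up 3.13% of the sum in parental cells and 1.27% in M8.

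Ratios between members within a sample do not depend on a scaling factor per sample. The ratio of Gsn to Capg was 0.762, 0.654 and 0.621 in parental replicates and 0.506, 0.544 and 0.541 in M8. All M8 ratios were lower. The ratio of Avil to Flii was 0.343 ± 0.0851 in parental cells and 0.138 ± 0.0210 in M8 (SD, n = 3 each), and that of Avil to Svil was 2.48 ± 0.560 and 1.36 ± 0.211. These ratios come from the values on which the family was chosen and carry no test.

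Other genes that act on actin were taken from 5 lists, and 66 of their 94 genes were tested. Of these, 14 (21.2%) were called higher and 11 (16.7%) lower in M8, near the shares over all genes, and the median log2 fold change was 0.0047. With upper-quartile scaling 11 were higher and 16 lower, and with quantile normalization 11 and 17. The lower count was 6 without M8 replicate 1 or M8 replicate 2, and 6 to 13 over all fits with a single sample left out. Add3 alone of the called genes had a ratio of mean FPKM beyond 1.5-fold in either direction, at 0.661.

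The actins and the proteins that cross-link or bind along filaments had 8 of 16 genes called higher and 0 lower, beside 21.2% and 16.5% of all genes tested, and a median of 0.11. The counts were 8 and 1 among genes with a mean of at least 5 FPKM, and 7 and 1 without parental replicate 1 or without parental replicate 3. With quantile normalization the counts were 6 and 4, with upper-quartile scaling 6 and 3, and with TPM 7 and 1. Tpm1, a tropomyosin gene, rose from 227 to 295 FPKM, by 0.38 on the log2 scale with a standard error of 0.043 (limma adjusted p = 0.000577). Tln1, the gene of talin, rose by 0.27 (limma adjusted p = 0.00377) and Actn1, the gene of an alpha-actinin, by 0.26 (limma adjusted p = 0.0216), or by 0.17 without parental replicate 1.

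Among genes that cut filaments or bind actin monomers, 4 of 17 (23.5%) were called higher and 5 (29.4%) lower, beside 21.2% and 16.5% of all genes tested. The lower count was 3 without parental replicate 2, without any one M8 replicate or at an adjusted p below 0.05. The pair of profilin genes went apart. Pfn2 fell from a mean of 35.5 to one of 24.99 FPKM (log2 fold change -0.49, limma adjusted p = 0.000917), and Pfn1 rose from 644 to 807 FPKM (0.32, limma adjusted p = 0.00132). Limk1, whose kinase acts on cofilin, fell by 0.38 on the log2 scale (limma adjusted p = 0.00132). The cofilin family genes, looked at after their values were seen, moved both ways. Cfl1 rose from 705 to 841 FPKM (0.25, limma adjusted p = 0.00329), whereas Dstn (-0.18, limma adjusted p = 0.0140) and Cfl2 (-0.13, limma adjusted p = 0.0795) were lower. The thymosin gene Tmsb10 rose by 0.35 (limma adjusted p = 0.0118).

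Of 7 capping protein genes, 2 were lower and 0 higher. Over all genes tested 16.5% were lower and 21.2% higher, shares that stand beside the nucleation and microvillus counts too. Add3, an adducin gene, fell from 16.0 to 10.6 FPKM (log2 fold change -0.55, limma adjusted p = 0.000335), and Capza2 fell by 0.14 (limma adjusted p = 0.0324). Of 18 nucleation genes 2 were lower, the formin gene Inf2 (-0.13, limma adjusted p = 0.0361) and Actr2 of the Arp2/3 complex (-0.12, limma adjusted p = 0.0976). The microvillus list had 8 tested genes, of which 2 were higher and 2 lower. Eps8, a capping and bundling gene, rose from 40.1 to 50.3 FPKM (log2 fold change 0.32, limma adjusted p = 0.00143), whereas Msn, the gene of moesin, had -0.32 (limma adjusted p = 0.0587) and Slc9a3r1, a scaffold gene, -0.22 (limma adjusted p = 0.0800). Without parental replicate 1 these were -0.21 and -0.13, and without M8 replicate 2 Actr2 was at -0.078. Of 17 alternatives, 8 lost the call of Slc9a3r1, 8 that of Actr2, 5 that of Msn, 2 that of Inf2 and 1 that of Capza2. In the microvillus list 0 genes were lower without parental replicate 1 or M8 replicate 3, with quantile normalization, without a filter or at an adjusted p below 0.05. In the nucleation list 0 were lower without parental replicate 2 or M8 replicate 2. With quantile normalization 4 nucleation genes were lower and 1 higher, and 4 capping genes were lower. With upper-quartile scaling 3 nucleation and 3 capping genes were lower.

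**Figure D3:**
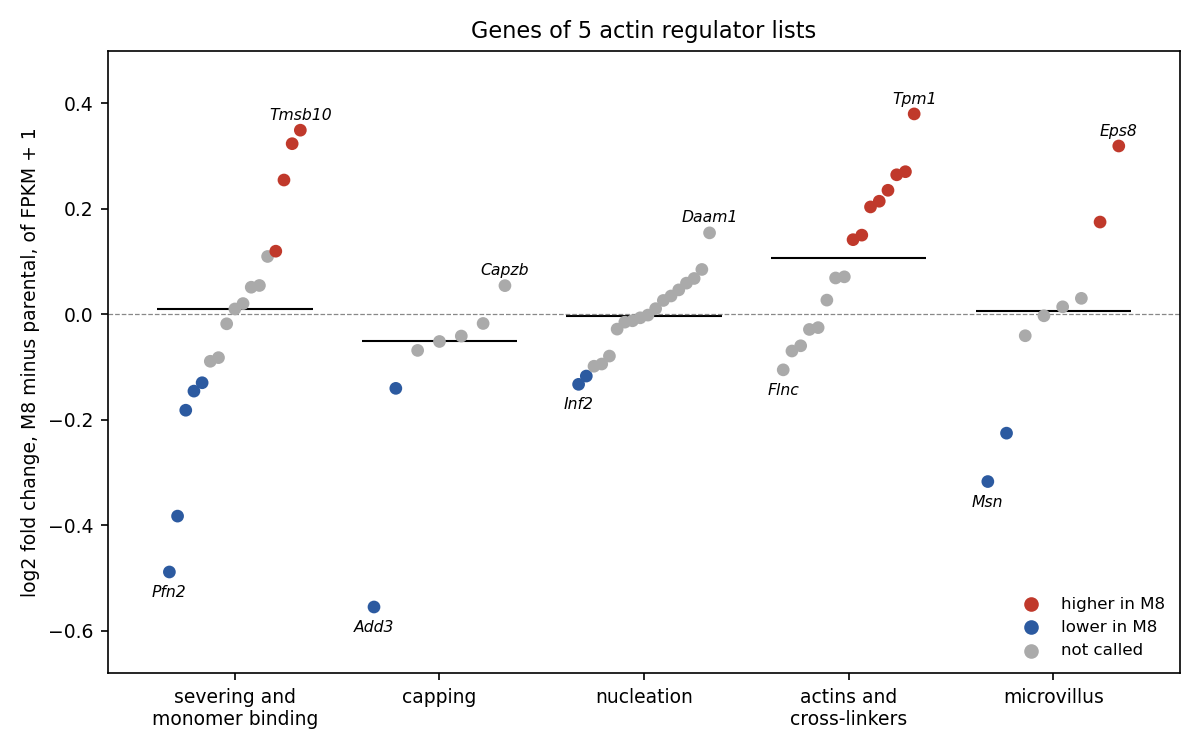
Log2 fold changes (M8 minus parental) of the 66 tested genes in 5 actin regulator lists. Points are genes, red where called higher, blue where called lower and grey where not called, and black lines are the medians. The actin and cross-linker genes have 8 red points and no blue one, where quantile normalization gave 6 and 4 and leaving out parental replicate 1 or 3 gave 7 and 1, and the lowest point of all lists is Add3 at -0.55.

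The position of the members was not used to choose them, so the 3 nearest protein-coding genes on each side were compared as well. Of 42 such genes 29 were tested, 7 were called higher and 7 lower, beside 21.2% and 16.5% of all genes tested, and their median log2 fold change was -0.055. The split depended on the scale, with 5 higher and 11 lower under upper-quartile scaling and 5 and 10 under TPM or quantile normalization. Without M8 replicate 1 the counts were 4 higher and 4 lower, and with any single sample left out they were 4 to 6 and 4 to 8. None was called with a change of 1.5-fold or more.

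Around Avil, 3 of 4 tested neighbours were called higher and 0 lower on the deposited scale, where 21.2% and 16.5% of all genes were. Ctdsp2, a phosphatase gene 0.09 kb away, had means of 68.2 ± 2.70 and 65.8 ± 1.19 FPKM (SD, n = 3 each), with replicates that overlapped (log2 fold change -0.052, limma adjusted p = 0.392). It was called lower with quantile normalization (-0.13, limma adjusted p = 0.0851) and with upper-quartile scaling (-0.11, limma adjusted p = 0.0845), and had -0.032 to -0.126 over the 17 alternatives. On the other side Tsfm, a mitochondrial elongation factor gene 1.34 kb away, rose from 40.5 ± 1.57 to 46.1 ± 2.08 FPKM (log2 fold change 0.18, limma adjusted p = 0.0216), a call lost with quantile normalization (limma adjusted p = 0.107). Mettl1, a tRNA methyltransferase gene, rose by 0.20 (limma adjusted p = 0.0104). For Xrcc6bp1 the log2 fold change was 0.18 (limma adjusted p = 0.0743), a call that was lost in 8 of 17 alternatives, with 0.11 without parental replicate 1.

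Around Capg, singled out after the counts were seen, 4 of 5 tested neighbours were called lower and 0 higher, where 16.5% of all genes were lower. With the 5 nearest on each side it was 4 of 8. The 4 were Tgoln1, a trans-Golgi gene (log2 fold change -0.28, limma adjusted p = 0.00309), Elmod3 (-0.30, limma adjusted p = 0.0150), Retsat (-0.21, limma adjusted p = 0.0155) and Ggcx (-0.16, limma adjusted p = 0.0524). Capg itself was not called.

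**Figure D4:**
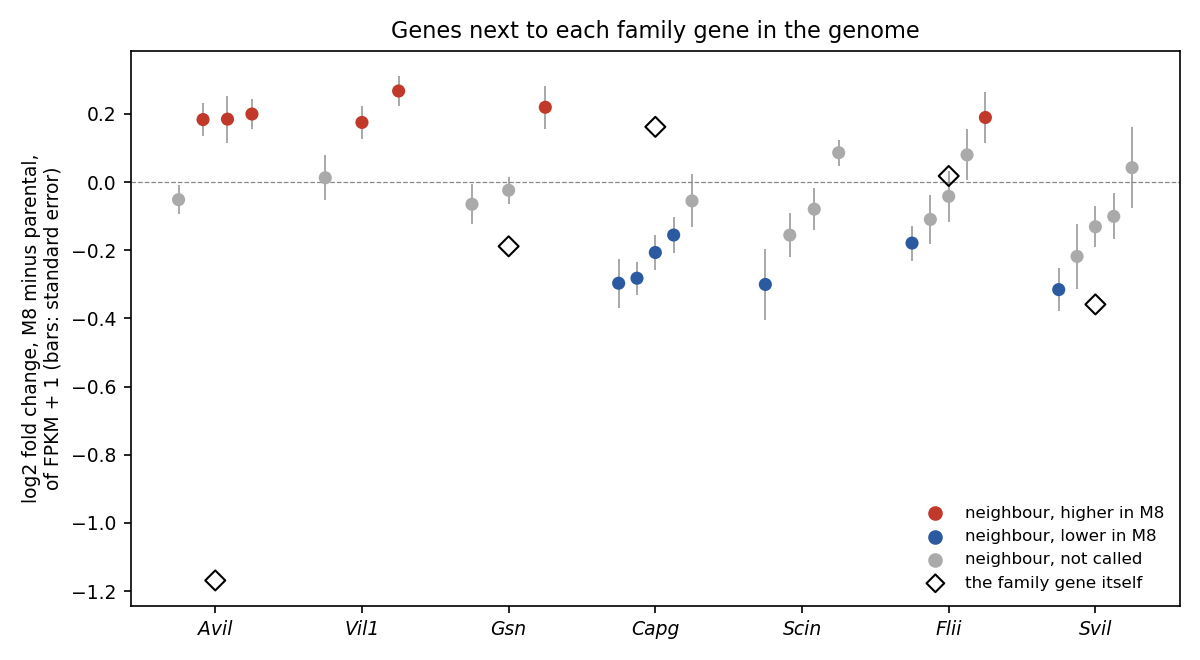
Log2 fold changes (M8 minus parental) of the family genes and of the tested genes among their 3 nearest protein-coding neighbours on each side. Diamonds are the family genes, and points are neighbours with bars of 1 standard error, red where called higher, blue where called lower and grey where not called. Avil, at -1.17, is far below its 4 tested neighbours, which lie between -0.052 and 0.20.

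Genes whose pattern over the 6 samples was most like that of Avil were ranked by Pearson's r of log2(FPKM + 1) among 8547 genes with a mean of at least 5 FPKM. The points share the difference between the lines, so r is a description and 124 genes had r above 0.95. The first was Rap2c, a small GTPase gene, with r = 0.999. Its means were 12.8 ± 0.75 FPKM in parental and 10.6 ± 0.40 FPKM in M8 samples (SD, n = 3 each). Like Avil it was highest in replicate 1 of each line, though its log2 fold change was only -0.25. Appl1 (r = 0.997), Ugt1a6a (0.994), Prrc2b (0.994) and Lcn2 (0.994) followed. Lcn2, which encodes the secreted iron-siderophore carrier lipocalin 2, had 57.5, 39.5 and 41.6 FPKM in parental cells and 16.8, 11.5 and 12.9 FPKM in M8.

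Marker genes of cell types known for advillin or villin were mostly at or near 0. Of 17 tuft cell genes listed, 16 had values. Of these, 2 passed the filter and 13 stayed below 0.1 FPKM in every sample, and the defining Pou2f3 and Trpm5 reached at most 0.2 and 0.053 FPKM. The tuft list summed to 147 to 173 FPKM in parental samples and 166 to 173 in M8, most of it from Ptgs1. Of 11 sensory neuron genes 2 passed and 8 stayed below 0.1 FPKM. The defining Pou4f1 was listed at 0 in all samples and Prph was at 0.029 to 0.25 FPKM. Its sum was 16.2 to 18.6 FPKM in the parental line and 12.9 to 13.8 in M8, and most of it was P2rx3, an ATP-gated channel gene. P2rx3 fell from 12.6 ± 0.879 to 9.19 ± 0.467 FPKM (SD, n = 3 each), by -0.41 on the log2 scale with a standard error of 0.065 (limma adjusted p = 0.00227). It moved with Avil, and its part in the Avil result was not tested.

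The labels give colon as the tissue, but Cdx2, Epcam, Cdh1 and Krt19, which mark colon epithelium, were listed at 0 in all samples, and 3 of the 15 genes of that list passed the filter. Krt20 fell from 17.4 to 11.9 FPKM (log2 fold change -0.50, limma adjusted p = 0.00438) and Lgals4 from 1.68 to 0.680 FPKM (-0.66, limma adjusted p = 0.00728), while Krt18 was not called. Of the fibroblast list 5 of 6 genes passed, and its sum was 199 to 222 FPKM in the parental line and 217 to 231 in M8. Pdgfra (-0.43, limma adjusted p = 0.00903) and Dcn (-0.38, limma adjusted p = 0.0245) were lower in M8, Pdgfrb was higher (0.25, limma adjusted p = 0.00787), and Col1a1 and Col3a1 were not called. The leukocyte list summed to at most 0.604 FPKM and the endothelial list to at most 0.0853 FPKM.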

How the data were processed

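Stranded poly(A) libraries were read by the authors as 101-base single reads and mapped to mm10. The submitters' processing notes name TopHat2 2.1.1, Bowtie2 2.2.8, SAMtools 0.1.18 and Cuffdiff 2.2.1. The deposited FPKM values are per gene symbol, and the annotation and any filter are not given in the sources used here. The members and lists were chosen with earlier results of these data known.

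Values were compared between 3 parental and 3 M8 samples, grouped by title, with limma 3.58.1 in R 4.3.3 (eBayes with a trend) on log2(FPKM + 1), for genes averaging 1 FPKM or more, with Benjamini-Hochberg adjustment over all genes tested. FPKM values are not counts, so no count test was run. The fit was tested on simulated data. Python 3.11.15 with pandas 2.3.3 and matplotlib 3.10.9 served for summaries and plots.

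Named by rule were the members, Vill, the tested neighbours of Avil, other neighbours called with a 1.5-fold change, the 3 called genes of each actin list with the largest change, the 5 genes most like Avil and the defining markers. Other genes were chosen after their values were seen. Gene positions and upstream sequences are those of RefSeq on GRCm38.p6, and codons come from GENCODE M21. A planned comparison of protein sequences was not analysed here. Alternatives were other pseudocounts (0.1, 0.5), no filter or a mean of at least 5 FPKM, median centring, TPM, quantile and upper-quartile scaling, no trend, an adjusted p below 0.05, the replicate number as a block, the 5 nearest neighbours on each side and each sample left out.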

Additional observations from a re-analysis of the deposited data

How the results depend on the processing

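Over the 17 alternatives the log2 fold change of Avil ranged from -1.28 to -0.99, that of Svil from -0.41 to -0.31 and that of Gsn from -0.29 to -0.15. Since the family was chosen on this contrast, these ranges describe the values and support nothing. Flii, never called, had -0.019 with TPM, -0.054 with quantile and -0.043 with upper-quartile scaling. With upper-quartile scaling 1470 genes were called higher and 2769 lower over all genes, and 11 neighbours were lower. Quantile normalization gave 17 lower actin regulators and an adjusted p below 0.05 gave 6. With the 5 nearest neighbours on each side, which tests more genes, 11 were lower. With single samples left out, called genes ranged over 1157 to 1672 lower genes in all, 0 to 1 higher members, 6 to 13 lower actin regulators, 4 to 6 higher neighbours and 4 to 8 lower neighbours. Without M8 replicate 1 there were 1157 lower genes in all, 6 lower actin regulators and 4 lower neighbours. By Spearman's rho, 32 genes tied at 1 in likeness to Avil. The causes of these shifts were not tested.

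Replicate numbers are shared between the lines. Same-numbered samples had deviations that correlated at 0.10, -0.11 and -0.033 over all genes tested. These values do not show that the numbers pair the samples, and with 3 samples a line they cannot exclude it. With the number as a block Avil kept -1.17, and its standard error was 0.068 in place of 0.145. With the number as a block, 2171 genes were higher and 1688 lower, 1 member, Capg, was called higher and 3 lower, and 8 actin regulators were lower. Genes under 1 FPKM, Vil1 and Vill among them, rest on few reads.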
